A study of Mus musculus with 20 samples.

Results

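Lysosomes are acidic organelles in which proteins, glycans and lipids delivered by endocytosis, phagocytosis and autophagy are broken down. Soluble hydrolases do the cleaving, membrane proteins protect the boundary and move products and ions across it, and the transcription factor TFEB raises the expression of many lysosomal genes when it enters the nucleus. In the heart these enzymes clear glycogen, worn mitochondria and lipid, and inherited loss of acid alpha-glucosidase or of LAMP2 causes cardiomyopathy. Macrophages are rich in the same enzymes.

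The genes described here were 35 genes for lysosomal hydrolases, membrane proteins and regulators, taken from a list of names and read through the symbol that the platform annotation gives each probe set. Of the 35, 34 had a probe set with 1 gene on the array, out of 18193 genes so named in all, and levels of Cd63 were not analysed here. The old group held 10 male C57BL/6J mice aged 25 to 28 months and the young group 10 male C57BL/6J mice aged 4 to 6 months, an inbred laboratory strain, with no other treatment given in the labels. Total RNA of the cardiac ventricle from each mouse went to 1 Affymetrix MOE430 2.0 array, which reads a transcript through sets of short probes near its 3′ end. GCRMA gave each probe set a log2 signal, where a difference of 1 is a doubling of the signal. Levels on this scale differ between probes, so each gene is compared only with itself across mice. Whole ventricle holds many cell types, and in such bulk RNA more cells of a type and more RNA per cell cannot be told apart.

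Array medians lay between 3.07 and 3.20. The heart muscle genes Myh6, Myl2 and Tnnt2 were read at means of 15.90, 15.08 and 15.38 in old arrays and 15.90, 15.15 and 15.40 in young arrays, so heart muscle was present in both groups. Myl7, a light chain of atrial myosin, exceeded 10 in 7 of the 10 old arrays and was at most 2.44 in the young arrays. In old replicates 1, 2 and 7, the other old arrays, it was 2.36, 8.27 and 6.58, so replicates 2 and 7 also lay above every young array. No listed gene kept its call without the 7 arrays above 10, and the differences found without them are given with the results they change. The arrays also fell into 5 sets of similar arrays, each with 2 old and 2 young mice, which the labels do not name. Old replicates 1 and 2 were in set 1 and old replicate 7 in set 4, while the young arrays covered all 5 sets.

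Of the tested genes, 3 of 9 for proteases, 4 of 7 for lipid-handling proteins and 1 of 4 for membrane proteins were higher in old ventricles, while no listed gene was called lower. Old and young were compared with limma over 9275 genes, and a gene was called at a Benjamini-Hochberg adjusted p under 0.05. Of the 35 genes, 30 passed the filter on low values and were tested. Of these 30, 8 were higher in old and 0 were lower. Over all genes tested, 11.2% were called higher and 7.49% lower. When the 7 old arrays with Myl7 above 10 were left out, 0 of the 30 were called higher and 0 lower, against 2.25% and 0.679% of all genes, and at an unadjusted p under 0.05 the counts were 6 and 1. At an unadjusted p under 0.05, 13 were higher and 0 lower. That level was common over all genes, since Lamp2, with an unadjusted limma p of 0.0410, ranked only 2770 of 9275 by p. The shares of all genes past it in each direction were not taken, in this fit or in the others. The estimate was above 0 for 24 of the 30, and their median log2 difference, old minus young, was 0.20, beside 0.0088 over all genes tested. Without the 7 arrays it was above 0 for 17 and below 0 for 13, with a median of 0.0254 beside 0.0180 over all genes. With an atrial index from Myl7 and Sln as a covariate, 20 lay above 0 and 10 below, with a median of 0.0869 beside 0.0155 over all genes. The filter favoured neither group here, since all 30 tested genes exceeded 4 in all 20 arrays, with a lowest value of 4.46 for Neu1. For none of the 30 did every old array lie above every young array, a pattern shown by 1.36% of all genes tested, and for 0 did every old array lie below, against 0.42% of all genes.

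**Figure D1:**
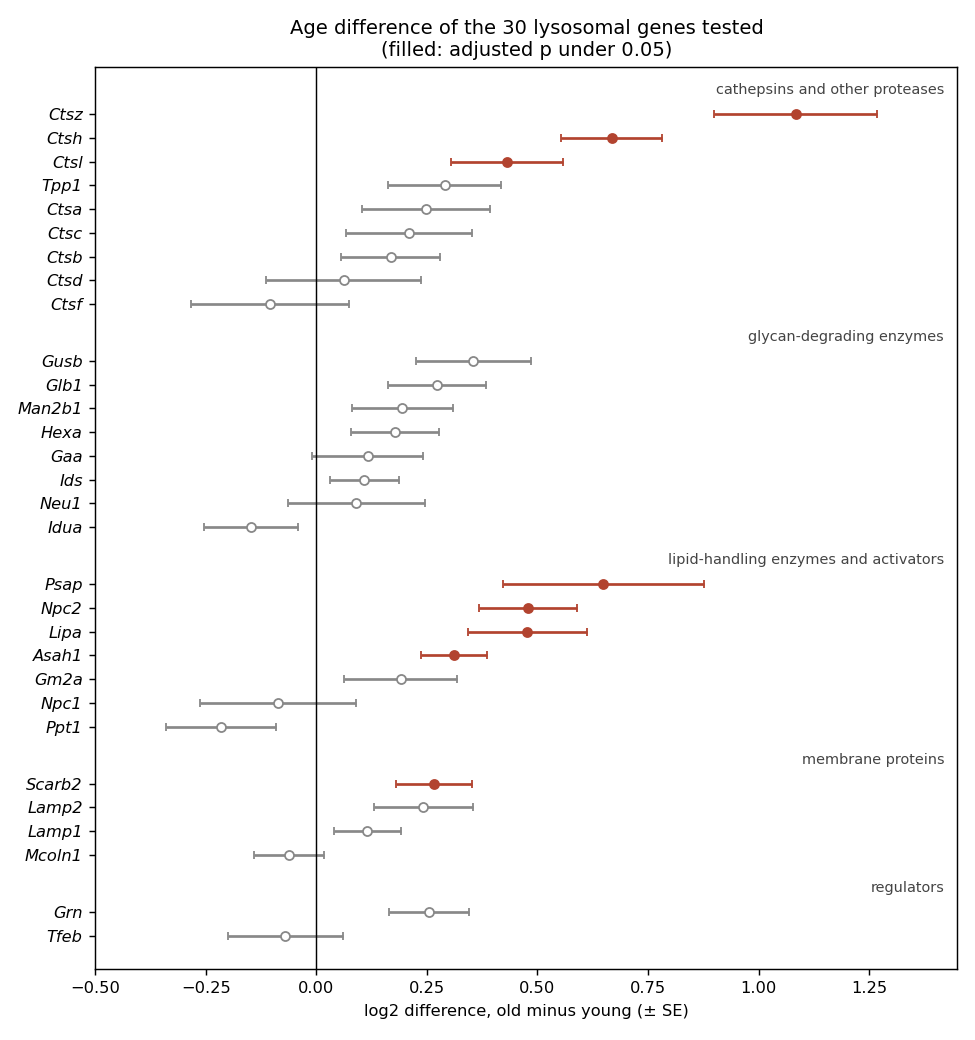
Log2 difference, old minus young, with its standard error for the 30 lysosomal genes tested, grouped by role and ordered within each role. Filled points are the 8 genes with an adjusted p under 0.05, which lie in the protease, lipid and membrane groups, and 6 open points lie below 0.

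Among the cathepsins and other proteases, 3 of 9 tested genes were called, Ctsz, Ctsh and Ctsl, all higher in old, and 8 of 9 estimates were above 0. Ctsz encodes cathepsin Z, a carboxypeptidase found mainly in phagocytic cells. Its log2 value ran from 8.90 through a median of 9.58 to 10.12 in old arrays, against 7.77 through 8.55 to 8.99 in young arrays. The groups overlapped narrowly, with 8 of 10 old arrays above all young ones. Old arrays averaged 9.54 ± 0.46 and young arrays 8.45 ± 0.42 (SD, n = 10 each). The difference was 1.08 ± 0.18 (SE), or 2.12-fold, with a limma adjusted p of 3.00e-04. Ctsz ranked 191 of 9275 genes by p, the first among the listed genes, and its difference without the 7 arrays was 0.50 (adjusted p = 0.294).

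Ctsh encodes cathepsin H, which trims peptides from their amino end. Its values in old arrays were 8.996 at the lowest, 9.25 at the median and 9.66 at the highest, against 8.28, 8.58 and 9.03 in young arrays. All 10 old arrays lay above the young median, and 8 lay above every young array. The difference was 0.67 ± 0.11 (SE), a 1.59-fold level in old, with a limma adjusted p of 0.000317. Ctsl encodes cathepsin L, a major endopeptidase of the lysosome whose loss in mice leads to a dilated heart. It ran from 11.06 through 11.87 to 12.20 in old arrays and from 11.04 through 11.29 to 11.54 in young arrays. Here 7 old arrays exceeded every young one while the lowest old array lay within the young range, and the difference was 0.43 ± 0.13 (SE, limma adjusted p = 0.0206).

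The other tested proteases were not called. Tpp1, tripeptidyl peptidase 1, was at 0.29 (limma adjusted p = 0.119), Ctsa, the carboxypeptidase that shields beta-galactosidase and sialidase, at 0.25 (adjusted p = 0.248) and Ctsc, which activates granule proteases of immune cells, at 0.21 (adjusted p = 0.326). Ctsb, the abundant cysteine protease cathepsin B, averaged 11.49 ± 0.24 (SD) in old and 11.33 ± 0.25 in young arrays (n = 10 each; limma adjusted p = 0.317). Ctsd, the aspartic protease cathepsin D, averaged 10.86 ± 0.40 in old and 10.79 ± 0.43 in young arrays (SD, n = 10 each; limma adjusted p = 0.850). Ctsf was at -0.11 (adjusted p = 0.734). The differences of Ctsb and Ctsd were thus smaller than the SD within either group, unlike those of Ctsz, Ctsh and Ctsl. Most of that spread followed the 5 array sets, which held 97.3% of the within-age variance of Ctsb and 91.4% of that of Ctsd. With the set as a block in limma, Ctsb was called higher (adjusted p = 0.0147) and Ctsd was not (adjusted p = 0.508).

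Ctsk, the collagen-cleaving cathepsin of osteoclasts and some fibroblasts, failed the filter because only 8 arrays exceeded 4. Its value was 3.22 at the lowest, 4.28 at the median and 5.37 at the highest in old arrays, against 3.10, 3.39 and 4.13 in young arrays, beside array medians of 3.07 to 3.20. When all 18193 genes were fitted with no filter, Ctsk passed the threshold (limma adjusted p = 0.0276), but its young values lay near background, so no size of difference is given. In that fit 7.15% of all genes were called higher and 16.7% lower.

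**Figure D2:**
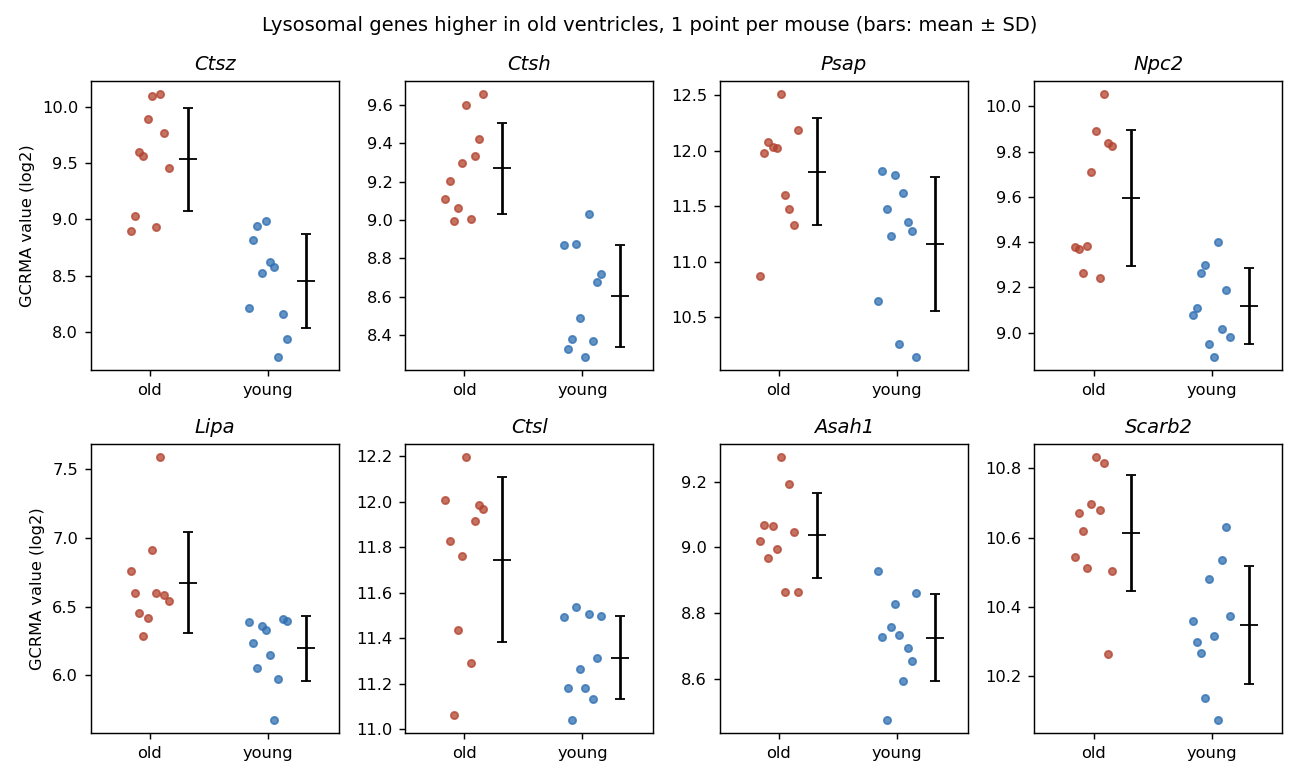
GCRMA value on the log2 scale for the 8 lysosomal genes called higher in old, 1 point per mouse, with old left of young and the mean ± SD beside each group. Old arrays sit higher as a group in every panel, and at least 1 old array reaches into the young range in each.

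Of 7 genes for lipid-handling enzymes and activators, 4 were higher in old, Npc2, Asah1, Lipa and Psap, and 0 were lower. Npc2 encodes the soluble protein that hands cholesterol to NPC1 for export. Its values were 9.24 at the lowest, 9.55 at the median and 10.05 at the highest in old arrays, against 8.89, 9.09 and 9.40 in young arrays. All 10 old arrays exceeded the young median, and the difference was 0.48 ± 0.11 (SE), a 1.39-fold level, with a limma adjusted p of 0.00432, beside 0.21 without the 7 arrays (adjusted p = 0.387). Asah1, which encodes acid ceramidase, ran from 8.86 through 9.03 to 9.28 in old arrays and from 8.48 through 8.73 to 8.93 in young arrays. The spread within groups was small, 8 old arrays lay above every young one, and the difference of 0.31 ± 0.07 (SE) had a limma adjusted p of 0.00545.

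Lipa encodes lysosomal acid lipase, which hydrolyses the cholesteryl esters and triglycerides of lipoproteins. It ran from 6.28 through 6.59 to 7.59 in old arrays and from 5.68 through 6.28 to 6.41 in young arrays, so that 9 of 10 old arrays lay above every young one. Its difference was 0.48 ± 0.13 (SE, limma adjusted p = 0.0164). Psap encodes prosaposin, the precursor of the saposins that present sphingolipids to their hydrolases. It ran from 10.87 through 12.00 to 12.51 in old arrays and from 10.14 through 11.32 to 11.82 in young arrays. It had the widest spread of the 8 called genes, with an SD of 0.48 in old and 0.61 in young (n = 10 each), and its difference of 0.65 ± 0.23 (SE) lay at the edge of the call (limma adjusted p = 0.0487), beside 0.32 without the 7 arrays (adjusted p = 0.686).

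Psap no longer passed the threshold when certain single arrays were dropped, 14 of 20 in all, namely without old replicates 2, 3, 4, 5, 6, 7 or 10 or young replicates 11, 13, 14, 16, 18, 19 or 20, with limma adjusted p up to 0.0918. Its difference stayed between 0.54 and 0.75 in the 20 fits. The remaining lipid genes were not called. Gm2a, the activator protein for GM2 ganglioside breakdown, was at 0.19 (limma adjusted p = 0.320) and the cholesterol exporter gene Npc1 at -0.09 (adjusted p = 0.777). Ppt1, a thioesterase that removes palmitate from proteins, had the lowest estimate of all 30 genes, at -0.22 ± 0.12 (SE, limma adjusted p = 0.243). The direction of Npc1 turned without the 7 arrays, at 0.10, and with the atrial index, at 0.13.

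The glycan-degrading enzymes showed no call. Of 11 listed genes 8 were tested, 0 were higher and 0 lower, although 7 estimates were above 0 with a median of 0.15. In the same limma fit Gusb and Glb1 had an unadjusted p under 0.05, both higher in old, so the counts at that level were 2 higher and 0 lower. Gusb, beta-glucuronidase, ran from 6.64 through 7.12 to 7.68 in old arrays and from 6.51 through 6.78 to 7.26 in young arrays, with a difference of 0.36 ± 0.13 (SE, limma adjusted p = 0.0619). Glb1, the beta-galactosidase whose activity is widely used as a stain for senescent cells, ran from 5.84 through 6.24 to 6.74 in old arrays and from 5.48 through 6.07 to 6.15 in young arrays, with a difference of 0.27 ± 0.11 (SE, limma adjusted p = 0.0897). For Glb1, 6 old arrays exceeded every young one. Both reached the threshold when single arrays were left out, Gusb without old replicates 1, 2 or 10 or young replicate 12 (adjusted p = 0.0238 at the lowest), and Glb1 without old replicate 1 (adjusted p = 0.0425). Without the 7 arrays Gusb was at 0.0265 (adjusted p = 0.947) and Glb1 at 0.0244 (adjusted p = 0.951).

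Gaa, the enzyme that degrades glycogen in lysosomes, averaged 8.89 ± 0.34 in old and 8.77 ± 0.21 in young arrays (SD, n = 10 each; limma adjusted p = 0.561). Man2b1, an alpha-mannosidase, was at 0.19, Hexa, a subunit of beta-hexosaminidase, at 0.18, Ids, iduronate-2-sulfatase, at 0.11 and Neu1, the lysosomal sialidase, at 0.09, with adjusted p between 0.222 and 0.735. Idua, alpha-L-iduronidase, which acts on the same glycosaminoglycans as Ids, was the only one of the 8 below 0, at -0.15 (adjusted p = 0.362). Gla, Naglu and Sgsh, which encode alpha-galactosidase A and a pair of heparan sulfate-degrading enzymes, did not exceed 4 in any array. With no filter none of the 3 passed the threshold (limma adjusted p = 0.0530, 0.975 and 0.273).

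Of the membrane proteins 4 were tested and 1 was called. Scarb2 encodes LIMP-2, an integral membrane protein that carries glucocerebrosidase to the lysosome. It ran from 10.26 through 10.65 to 10.83 in old arrays and from 10.07 through 10.34 to 10.63 in young arrays, and 5 old arrays lay above every young one. The difference was 0.27 ± 0.09 (SE, limma adjusted p = 0.0333). Scarb2 missed the threshold when any of 8 single arrays was dropped, without old replicates 5, 6 or 8 or young replicates 12, 13, 14, 16 or 17, with adjusted p up to 0.0632.

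Lamp1 and Lamp2 encode the main glycoproteins of the lysosomal membrane. Lamp2 ran from 10.999 through 11.49 to 11.62 in old arrays and from 10.72 through 11.28 to 11.45 in young arrays, a difference of 0.24 ± 0.11 (SE, limma adjusted p = 0.137). Lamp1 averaged 11.28 ± 0.11 in old and 11.16 ± 0.16 in young arrays (SD, n = 10 each; limma adjusted p = 0.314). Mcoln1, the calcium-permeable channel of the lysosome, was at -0.06 (limma adjusted p = 0.636).

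Of the regulators, Grn encodes progranulin, a secreted and lysosomal protein needed for normal hydrolase activity. Grn ran from 9.38 through 9.76 to 9.90 in old arrays and from 9.15 through 9.41 to 9.67 in young arrays, a difference of 0.25 ± 0.09 (SE) just outside the call (limma adjusted p = 0.0534). It was called without old replicates 3, 4 or 7 or young replicates 11 or 20 (adjusted p = 0.0307 at the lowest), and without the 7 arrays it was at 0.24 (adjusted p = 0.354). Tfeb, the gene for the transcription factor, averaged 5.70 ± 0.32 in old and 5.77 ± 0.26 in young arrays (SD, n = 10 each; limma adjusted p = 0.756). The array reads the Tfeb transcript and not the amount of its protein in the nucleus.

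TFEB binds a palindromic site built around the E-box CACGTG. The promoter windows of RefSeq (GRCm38.p6), which hold 250 bases before and 50 bases from each annotated start, covered 31 of the 35 genes. CACGTG, which reads the same on both strands, occurred in 11 of these 31 genes (35.5%), against 8.09% of 27025 genes with a window. The longer TCACGTGA, which contains CACGTG and is also its own reverse complement, occurred in 4 of the 31 (12.9%), against 1.12% of all. The 11 genes were Ctsa, Ctsd, Ctsf, Ctsl, Gaa, Gla, Glb1, Naglu, Sgsh, Lamp1 and Mcoln1. Of the 8 called genes 6 had a window, and 1 of the 6, Ctsl, held CACGTG. A match of letters is a description of the window and not a binding site. The 100 bases before the start are shown for 3 of the genes that hold the motif, with CACGTG in capitals. Lamp1 lies at chr8:13159061-13159160 on the + strand, Mcoln1 at chr8:3500419-3500518 on the + strand and Ctsd at chr7:142387828-142387927 on the - strand, and each is written 5′ to 3′ along the gene.
Lamp1: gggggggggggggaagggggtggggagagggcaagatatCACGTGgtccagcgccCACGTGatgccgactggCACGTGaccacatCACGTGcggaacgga
Mcoln1: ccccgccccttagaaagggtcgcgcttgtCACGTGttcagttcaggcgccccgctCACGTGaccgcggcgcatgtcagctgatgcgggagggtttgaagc
Ctsd: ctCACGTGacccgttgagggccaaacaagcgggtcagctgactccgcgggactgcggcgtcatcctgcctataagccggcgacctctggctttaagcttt
These 3 genes, with 4, 2 and 1 copies of CACGTG in the stretches shown, were at 0.11, -0.06 and 0.06 on the log2 scale, old minus young, and none was called. No rule was set for the choice of the 3. The other tested genes with the motif were Ctsl at 0.43, which was called, Glb1 at 0.27, Ctsa at 0.25, Gaa at 0.12 and Ctsf at -0.11.

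Several genes had more than 1 probe set, which gave more than 1 reading of the same gene. Which transcripts of a gene each probe set reads was not examined. The 34 genes had 81 probe sets with 1 gene, of which 54 passed the filter. In a limma fit over all 15304 passing probe sets, 15 of the 54 were higher in old and 0 lower, beside 8.89% and 5.91% of all. At an unadjusted p under 0.05 the counts were 24 and 0, and the share of all probe sets at that level was not taken. For Ctsz all 3 probe sets were higher, by 1.08, 0.97 and 1.05, and for Ctsh both were, by 0.67 and 1.15. Both passing probe sets of Npc2 were higher as well, by 0.48 and 0.59.

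Other genes were read differently by different probe sets. The brightest probe set of Ctsc, which stood for the gene above, was at 0.21, while a second was higher by 0.66 ± 0.17 (SE, limma adjusted p = 0.0129). For Lamp2, 1 of 4 probe sets was called, at 0.54 (limma adjusted p = 0.00297), and the other 3 were at 0.33, 0.24 and 0.19. Grn had 1 of 3 called, at 0.43 (limma adjusted p = 0.0380), beside 0.37 and 0.25. Psap was at 0.65 and 0.90, and over probe sets the second passed (adjusted p = 0.0449) while the first did not (adjusted p = 0.0610). Lipa was called at 0.48 with its brightest probe set and was at 0.15 with its second (adjusted p = 0.252). Scarb2 was called at 0.27 (adjusted p = 0.0393) and at 0.19 missed the threshold with its second probe set (adjusted p = 0.0811). When the passing probe sets of a gene were averaged, 11 of 30 genes were called, with Ctsc, Grn and Lamp2 added to the 8. The share of all genes called in that fit was not taken, so the count has no background to be read against. Some probe sets, such as the brightest of Grn and Gaa, carry the manufacturer's mark for probes that may also match other transcripts. So do the second of Ctsh and those of Ctsz at 0.97 and 1.05. The mark is also on the called probe sets of Lipa, at 0.48, Ctsc, at 0.66, and Grn, at 0.43.

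**Figure D3:**
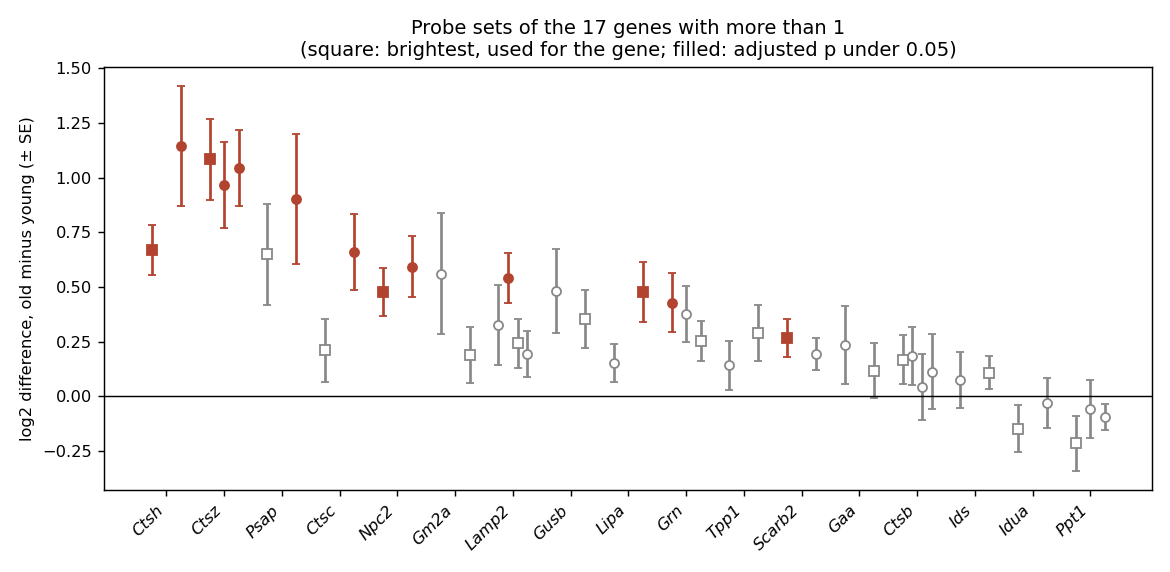
Log2 difference, old minus young, with its standard error for each passing probe set of the 17 lysosomal genes that had more than 1. Squares mark the brightest probe set and filled symbols an adjusted p under 0.05 over all probe sets; all 3 of Ctsz and both of Ctsh and Npc2 are filled, while Lamp2 and Grn each have 1 filled symbol.

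The 5 sets of similar arrays gave the age difference within sets of 2 old and 2 young mice. In each set all 8 called genes had a higher mean in old. Ctsz differed by 0.70 to 1.56 across the sets, Ctsh by 0.37 to 1.06, Npc2 by 0.14 to 0.88, Asah1 by 0.15 to 0.41 and Scarb2 by 0.16 to 0.37. The range was 0.14 to 0.76 for Ctsl, 0.23 to 0.90 for Lipa and 0.22 to 1.25 for Psap. Of the 30 genes 13 were higher in old in all 5 sets and 0 were lower in all 5, beside 19.1% and 18.6% of all genes tested. With the set as a block in limma, 16 of the 30 were called higher and 1 lower, against 19.4% and 16.7% of all genes. The 8 added were Ctsa, Ctsb, Tpp1, Glb1, Gusb, Hexa, Lamp2 and Grn, and the lower one was Ppt1 (adjusted p = 0.0489). The sets were found on these same values, so p-values under this block may be too small.

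Atrial muscle transcripts moved with the result. In the fit of 3 old and 10 young arrays, without the 7 old arrays with Myl7 above 10, none of the 30 genes was called, as given above. Atrial transcripts were not absent from that fit. Myl7 was 8.27 and 6.58 in old replicates 2 and 7, and the atrial gene Myl4 was at 2.09 (limma adjusted p = 0.101). All 8 genes called with 20 arrays, which include the arrays of this fit, had estimates above 0, from 0.21 to 0.51. Their limma adjusted p ran from 0.118 to 0.686. Their differences were 0.51 for Ctsh, 0.50 for Ctsz, 0.46 for Lipa, 0.39 for Ctsl, 0.32 for Psap, 0.28 for Scarb2, 0.26 for Asah1 and 0.21 for Npc2, against 20-array differences of 0.67, 1.08, 0.48, 0.43, 0.65, 0.27, 0.31 and 0.48 in the same order. The estimates of Ctsz, Psap and Npc2 were thus much smaller without the 7 arrays, while those of Lipa, Ctsl, Asah1 and Scarb2 moved little in that fit. The 3 old arrays left lay in sets 1 and 4 alone, so that fit also compared unlike mixes of array sets. Within set 1, of old replicates 1 and 2 and young replicates 11 and 20, Ctsz differed by 0.89, Psap by 1.03 and Npc2 by 0.34. Ctsh differed there by 0.37, Lipa by 0.29, Ctsl by 0.42, Asah1 by 0.15 and Scarb2 by 0.24. With an atrial index from Myl7 and Sln as a covariate, 0 of the 30 were called in either direction (2.81% of all genes higher and 0.927% lower), with 6 and 1 at an unadjusted p under 0.05, and the 8 were at 0.22 to 0.73. In that fit Ctsl was at 0.23 (adjusted p = 0.449), Npc2 at 0.22 (adjusted p = 0.339), Psap at 0.43 (adjusted p = 0.464) and Ctsz at 0.73 (adjusted p = 0.0659).

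The values of single mice show the same contrast. In old replicates 1, 2 and 7, the 3 old arrays with Myl7 at most 10, Ctsz was 8.90, 9.03 and 8.93, below the other 7 old arrays, which ran from 9.46 to 10.12, and close to the highest young array at 8.99. In the same 3 arrays Asah1 was 9.02, 9.07 and 8.86, inside the range of 8.86 to 9.28 of the other 7 old arrays, and Lipa was 6.76, 6.60 and 6.60, inside their range of 6.28 to 7.59. The old arrays with lower Myl7 therefore had the lowest Ctsz of the group but not the lowest Lipa. They also shared array sets 1 and 4 with young replicates 11, 20, 18 and 19. In those young arrays Ctsz was 8.21, 7.93, 7.77 and 8.15, below every other young array. The parts of atrial tissue and of array set in these differences were not tested.

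**Figure D4:**
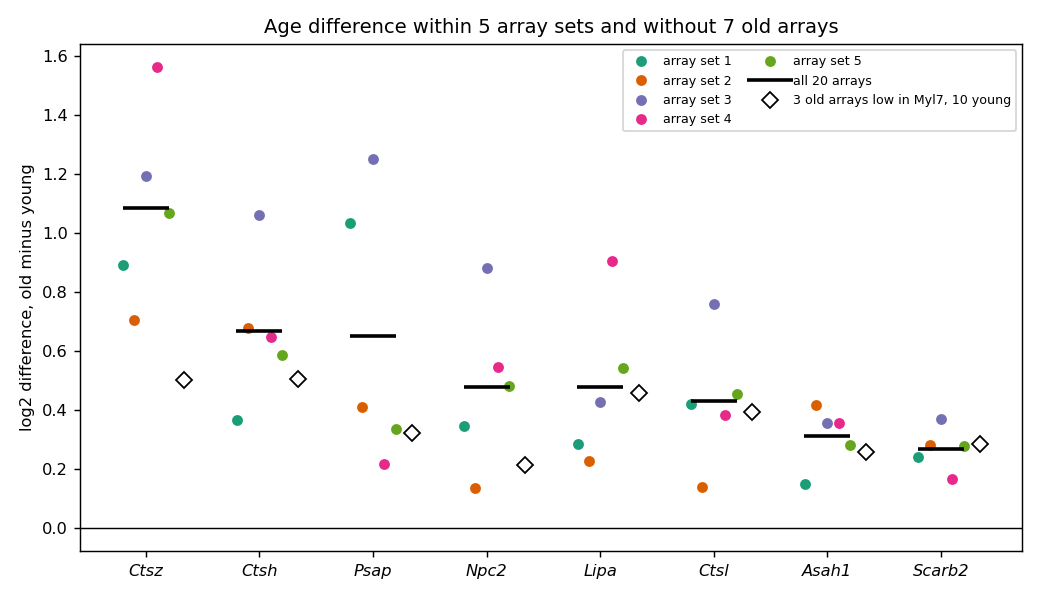
Log2 difference, old minus young, of the 8 called genes in each of 5 array sets (coloured points, 2 old and 2 young mice each), over all 20 arrays (bars) and between the 3 old arrays with Myl7 at most 10 and the 10 young arrays (diamonds). All points lie above 0, for genes that were called on these same arrays, and the diamond of Ctsz lies at 0.50 against a bar at 1.08.

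Markers of other cell types also differed between the groups. Of 25 tested macrophage markers 19 were higher in old and 0 lower. Vsig4 and Ccr2 are among the 19 but exceeded 4 in no young array, so that they passed the filter through the old arrays alone, and of the other 23 markers 17 were higher and 0 lower. F13a1 was at 1.01, and Vsig4 ran from 4.07 to 8.38 in old arrays and was at most 3.16 in young arrays. The summed linear level of the 30 listed macrophage genes ran from 6667 to 15271 in old arrays and from 4052 to 6188 in young arrays, with no overlap. The resident macrophage receptor genes Cx3cr1 and Timd4, and Trem2, exceeded 4 in no array, and Adgre1, the gene for F4/80, was at 0.34 (limma adjusted p = 0.167). Without the 7 arrays 11 of the 25 macrophage markers were called higher, Vsig4 and Ccr2 among them, and 0 lower. Of 13 fibroblast markers 9 were higher in old and 0 lower, with Postn at 1.70 and Mfap5 at 1.12, and with summed levels of 20067 to 37425 in old arrays and 17772 to 21331 in young arrays, and without the 7 arrays 1 was called.

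None of 12 genes listed as ventricular muscle markers was called by limma (0 higher and 1 lower at an unadjusted p under 0.05). Summed levels of the 12 were 309622 to 356738 in old arrays and 321261 to 368356 in young arrays. Some of the 12, such as Myh6 and Tnnt2, are also expressed in atrial muscle, so they do not measure ventricular muscle alone. The 1 lower was Irx4, at -0.58 (limma adjusted p = 0.0845), and at -0.09 without the 7 arrays (adjusted p = 0.849). Among tested markers, those higher in old were 5 of 5 for atrial muscle, 2 of 11 for endothelium (1 was lower), 1 of 8 for smooth muscle and pericytes (1 was lower), 2 of 2 for neutrophils, 2 of 2 for platelets, leaving out Clec1b, which exceeded 4 in no young array, and 0 of 1 for B and T cells, while no mast cell or adipocyte marker passed the filter. The part of these cell types in the differences of the lysosomal genes was not tested.

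Other genes of the pathway were taken from a list of 119, of which 109 were on the array and 91 were tested. Of the 91, 14 were higher in old and 4 lower, beside 11.2% and 7.49% of all genes tested, and their median difference was 0.05. The higher to lower split was 9 to 5 after quantile normalization of the arrays (8.73% and 11.5% of all genes) and 18 to 2 after centring each array on its median (12.3% and 5.64% of all genes). In both scalings the 35-gene list kept 0 genes called lower, with 8 and 10 called higher.

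Among 25 tested hydrolases and activators outside the 35 genes, 6 were higher and 2 lower. Ctss, the gene for cathepsin S of antigen-presenting cells, averaged 10.15 in old and 9.16 in young, a difference of 0.99 ± 0.19 (SE, limma adjusted p = 0.000797). Lgmn, which encodes the protease legumain that processes cathepsins, was at 0.39 (adjusted p = 0.0101) and Fuca1, alpha-L-fucosidase, at 0.32 (adjusted p = 0.0181). Siae, a sialic acid esterase, was lower by 0.34 (difference -0.34, adjusted p = 0.0218), and so was Epdr1, at -0.37 (adjusted p = 0.0411). Without the 7 arrays Ctss was at 0.81 (adjusted p = 0.0595), Lgmn at 0.25 (adjusted p = 0.392) and Fuca1 at 0.17 (adjusted p = 0.479). Siae was at -0.29 (adjusted p = 0.217) and Epdr1 at -0.42 (adjusted p = 0.150) in that limma fit. The call of Epdr1 was also lost after median centring.

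Of 16 tested genes for the proton pump that acidifies the lysosome 3 were higher and 0 lower. Atp6ap2, an accessory subunit, averaged 10.09 in old and 9.42 in young, a difference of 0.67 ± 0.14 (SE, limma adjusted p = 0.0015). Atp6v0e2 was at 0.86 (adjusted p = 0.00219) and Atp6v1h at 0.49 (adjusted p = 0.0296). Without the 7 arrays Atp6ap2 was at 0.57 (adjusted p = 0.0998), Atp6v0e2 at 0.39 (adjusted p = 0.288) and Atp6v1h at 0.47 (adjusted p = 0.300). Of 19 other membrane proteins and transporters 3 were higher and 0 lower, Laptm5 at 1.25 (adjusted p = 0.000701), Cd68 at 1.16 (adjusted p = 0.000326) and Slc11a1 at 0.42 (adjusted p = 0.0281). Laptm5 is a membrane protein of blood cells and Slc11a1 a metal transporter of macrophages, and Cd68 also stood in the macrophage list. Laptm5 and Cd68 were the only genes of the 91 called without the 7 arrays (adjusted p = 0.0177 and 0.0481), where Slc11a1 was at 0.15 (adjusted p = 0.626).

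Of 13 genes for sorting to the lysosome 2 were higher and 0 lower, M6pr, the cation-dependent mannose 6-phosphate receptor, at 0.22 (limma adjusted p = 0.0267) and Sort1, the sorting receptor sortilin, at 0.80 (adjusted p = 0.0401). Neither was called after quantile normalization, and without the 7 arrays Sort1 turned to -0.14 (adjusted p = 0.745) and M6pr was at 0.18 (adjusted p = 0.386). Of 15 transcription factor and nutrient signalling genes 0 were higher and 2 were lower. Flcn, whose product folliculin helps keep TFEB and TFE3 in the cytoplasm, averaged 9.16 in old and 9.73 in young, a difference of -0.57 ± 0.10 (SE, limma adjusted p = 0.000552). Mitf, a relative of TFEB, was at -0.35 (adjusted p = 0.0411), a call lost after median centring and in the fit without the 7 arrays, where it was at -0.0740 (adjusted p = 0.834). Flcn was at -0.54 there (adjusted p = 0.0914). At an unadjusted p under 0.05 none of these 15 genes was higher. None of 3 tested cathepsin inhibitor genes was called, though Cstb, the gene for cystatin B, was at 0.50 just outside the threshold (limma adjusted p = 0.0502).

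**Figure D5:**
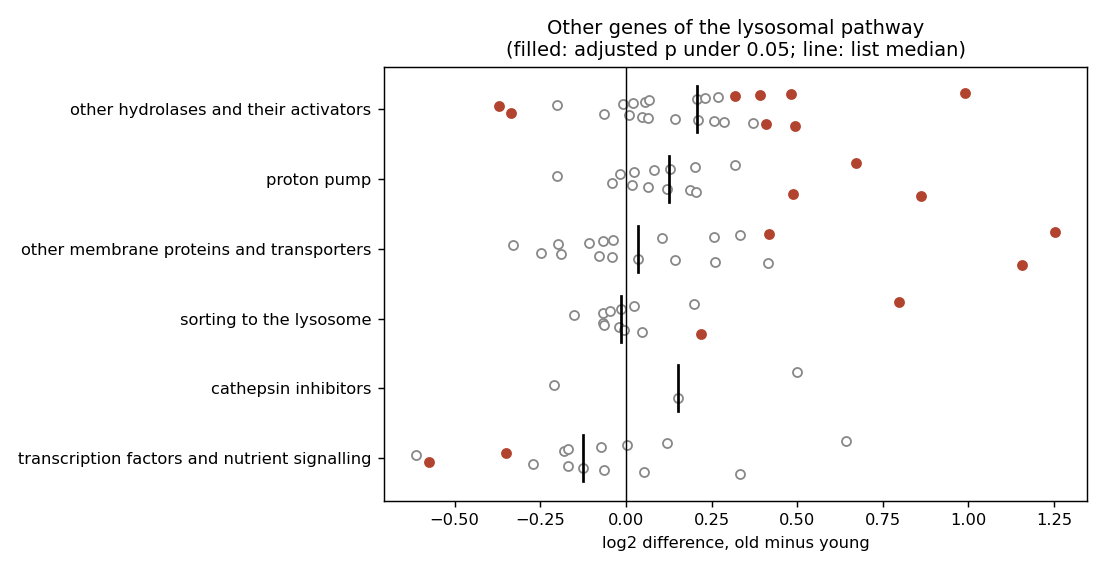
Log2 difference, old minus young, of 91 tested genes of the lysosomal pathway outside the 35-gene list, by function, with the median of each list as a line. Filled points have an adjusted p under 0.05. Those above 0 are 6 hydrolases, 3 proton pump genes, 3 other membrane proteins and 2 sorting genes. Those below 0 are 2 hydrolases and 2 genes of the transcription factor and nutrient list.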

How the data were processed

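Ventricle RNA of 10 old and 10 young male mice was read on 1 array per mouse. The deposited log2 values were made by the authors with GCRMA, per the submitters' processing notes, and its version is not given in the sources used here. Gene names came from the platform annotation. Of 45101 probe sets, 34945 had 1 gene, 932 several, 9160 none, and 64 were controls. Groups came from the sample titles. The series design text calls both ages young, and the titles and protocols were followed. A gene was its brightest probe set with a log2 value above 4 in at least 10 of 20 arrays. Old and young were compared with limma 3.58.1 in R 4.3.3 (lmFit, eBayes), with Benjamini-Hochberg adjustment over 9275 genes and a threshold of 0.05. The script was tested on simulated data. The number of arrays limits the precision.

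Alternatives were quantile normalization, median centring, no filter, a stricter filter at 6, averaged probe sets, leaving out the 7 old arrays with Myl7 above 10, an atrial index as a covariate (linear Myl7 and Sln, each relative to its highest array, averaged), array set as a block and leaving out each array. The 5 sets came from average linkage on residual correlations. The members and lists were chosen with earlier results of these data known. Named genes were all members, up to 3 called in each direction per pathway list, and the 2 markers with the smallest p in the lists described in detail. Adgre1, Cstb, Irx4 and the muscle genes were named after their values were seen.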

Additional observations from a re-analysis of the deposited data

Results flagged for a closer look

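Among 68 groups of 10 arrays examined (34 genes in old and in young), 5 held an array far from the other 9 by Dixon's criterion, and chance alone flags about 1 in 20 groups. Lipa was 7.59 in old replicate 8, the highest old value, with the nearest old array at 6.91. Idua was 6.09 in old replicate 1, the lowest old value, with the nearest at 6.60. Ctsc was 9.07 in young replicate 12, the lowest young value, with the nearest at 9.55. Gla was 3.15 in old replicate 8, the lowest old value, with the nearest at 3.35, and Sgsh was 3.29 in old replicate 5, the highest old value, with the nearest at 2.96. Gla and Sgsh exceeded 4 in no array. The call of Lipa held in each of the 20 fits that left out 1 array, old replicate 8 included.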

How the results depend on the processing

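The 8 genes called higher were also called after quantile normalization, with a filter at 6 and with the mean of probe sets (8, 8 and 11 called). Median centring gave 10, and no filter gave 9, with Ctsk and Grn added and Psap lost (adjusted p = 0.0526). The count was 0 without the 7 old arrays with Myl7 above 10, 0 with the atrial index and 16 with the set as a block, where 1 gene was lower. For the other pathway genes the higher count, 14, was 9 after quantile normalization, 2 without the 7 arrays, 2 with the index and 26 with the block, and the lower count, 4, was 2 after median centring, 0 without the 7 arrays, 1 with the index and 8 with the block. The fits without the 7 arrays hold fewer old samples, all in array sets 1 and 4, against young arrays of all 5 sets. Otherwise the cause was not tested. Leaving out single arrays gave 6 to 10 members higher and 0 to 0 lower, and 12 to 16 other pathway genes higher and 2 to 5 lower. Ctsz, Ctsh, Npc2, Asah1, Lipa and Ctsl were called in all 20 of these fits. The share of all genes called was not taken for the fits leaving out single arrays, the filter at 6 or the mean of probe sets.

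Of the 35 listed genes, those whose estimates changed sign were not called in the fit of 20 arrays, while of the called pathway genes Sort1 was at -0.14 without the 7 arrays, against 0.80 with all 20. Without the 7 arrays they were Ctsa -0.0856, Ctsb -0.11, Ctsd -0.24, Gaa -0.0327, Man2b1 -0.0941, Neu1 -0.26, Npc1 0.10, Gm2a -0.0775 and Lamp1 -0.0021. With the index they were Ctsd -0.0425, Gaa -0.0525, Man2b1 -0.0013, Neu1 -0.15, Npc1 0.13 and Gm2a -0.0624. After quantile normalization Neu1 was at -0.0276. Leaving out single arrays, Ctsd ran from -0.012 to 0.13, Neu1 from -0.0049 to 0.17 and Npc1 from -0.17 to 0.019. Within array set 1, of old replicates 1 and 2 and young replicates 11 and 20, not all of these signs turned. There Ctsb was at 0.12, Ctsd at 0.09, Gaa at 0.06, Gm2a at 0.06 and Lamp1 at 0.23. Ctsa was at -0.03, Man2b1 at -0.05, Neu1 at -0.29 and Npc1 at -0.03 in that set. No paired analysis was possible because the old and young groups share no replicate numbers. Ctsk in young arrays, and Gla, Naglu and Sgsh in all arrays, lay too near background for a difference to be read.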

Other observations

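The members differed in how far their spread within an age group followed the 5 array sets. The sets held a median of 73.9% of the within-age variance of the 30 tested genes, beside 70.2% over all genes tested. The share was 97.3% for Ctsb, 96.7% for Lamp2 and 91.4% for Ctsd. Ctsb and Lamp2 were called with the set as a block and not without it, and Ctsd was called in neither fit (adjusted p = 0.508 with the block). It was 41.0% for Idua, 42.0% for Lipa and 45.1% for Asah1.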
